A study of Mus musculus with 6 samples.

Results

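Lipid-associated macrophages are a state of adipose tissue macrophages that take up and break down lipid from stressed or dying adipocytes. They are known from expanding white fat, where they gather around dead adipocytes, and their programme depends on the lipid-sensing receptor encoded by Trem2. The 9 genes described here mark that state: the protease gene Mmp12, the surface and lysosomal glycoprotein gene Gpnmb, Trem2, the galectin gene Lgals3, the proton pump gene Atp6v0d2, and the surface protein genes Itgax, Clec7a, Cd9 and Ms4a7. They were picked by symbol, and all 9 are among the 12966 genes listed. They were picked with their difference between the groups in these libraries known. The values below are therefore a description of that difference, and none of them is support for it.

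RNA was sequenced from brown adipose tissue of male C57BL/6J mice at 10 weeks of age. All animals carried floxed Bscl2 (Bscl2f/f), the gene of seipin, an endoplasmic reticulum protein needed for normal lipid droplets. The 3 Ctrl libraries came from animals with that allele alone, and the 3 BKO libraries from Bscl2f/f Ucp1Cre animals, in which the Ucp1 promoter, active in brown adipocytes, drives the Cre recombinase. The labels do not say whether each library is a separate animal, so every spread and p given here measures these libraries and may be technical. The Cre was absent from Ctrl, and what it does by itself cannot be told apart from what losing Bscl2 does.

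Values are FPKM, a read fragment count corrected for how long the transcript is and how large the library is, so that levels can be set side by side between genes. The reads behind a value are unknown. Bscl2 ran from 104 to 116 FPKM over the Ctrl libraries and from 16.5 to 18.9 FPKM over the BKO libraries, and its BKO mean was 16.0% of the Ctrl mean, as the labels have it. All 14 brown adipocyte markers were listed. Ucp1 had a mean of 2851 ± 562 FPKM over the Ctrl libraries and of 2966 ± 19.7 FPKM over the BKO libraries (SD, n = 3 per group, as for every ± below). Library BKO-3 has no value between 0 and 0.486 FPKM, while the others have 337 to 628 each, so a gene under that level in BKO-3 is missing from the table. This favours genes that are high in BKO, and it touches the rarest of the genes described: Itgax lies at 1.06 times and Atp6v0d2 at 1.32 times that level in BKO-3.

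Before the levels, sequence around the transcription start is shown for 5 of the 9 genes. These are the ones whose start region matches TGANTCA, the AP-1 motif with its middle base left open. For Mmp12 there is also a match to a PU.1 motif. AP-1 and PU.1 are factors of macrophage gene expression. RefSeq windows (GRCm38.p6, a different build from the authors') were matched by symbol for 8 of the 9 genes, all but Atp6v0d2, and run from 250 bases before to 50 after each start. Capitals mark the motif matches, and each stretch reads 5′ to 3′ on the gene's strand.
Mmp12, chr9:7344279-7344378, plus strand: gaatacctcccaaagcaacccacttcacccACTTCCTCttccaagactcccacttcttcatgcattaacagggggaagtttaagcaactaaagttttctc
Mmp12, chr9:7347261-7347360, plus strand, ahead of an alternative start: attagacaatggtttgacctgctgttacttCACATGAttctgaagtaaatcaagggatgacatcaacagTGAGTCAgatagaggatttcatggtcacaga
Trem2, chr17:48346301-48346400, plus strand: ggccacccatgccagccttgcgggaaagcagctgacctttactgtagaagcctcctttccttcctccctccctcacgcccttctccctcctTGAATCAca
Itgax, chr7:128129450-128129546, plus strand: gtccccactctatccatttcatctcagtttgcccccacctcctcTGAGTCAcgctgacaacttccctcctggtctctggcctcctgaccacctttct
Ms4a7, chr19:11334707-11334806, minus strand, ahead of an alternative start: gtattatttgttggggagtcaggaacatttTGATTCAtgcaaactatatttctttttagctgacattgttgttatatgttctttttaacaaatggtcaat
Gpnmb, chr6:49036508-49036537, plus strand, across the start: atagatgccaggggcaagTGACTCAtgagc

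The motifs searched on both strands were TGANTCA (AP-1), CACGTG (the E-box of the CLEAR element of lysosomal genes), TCATGTG (the MITF M-box) and GAGGAAGT (PU.1), and no match in these genes overlapped another. TGANTCA was found for 5 of the 8 genes with a window, in at least 1 of their windows, and in 8.97% of all 27025 genes with a window. Its middle base was C for Gpnmb, G for Itgax and Mmp12, A for Trem2 and T for Ms4a7. The 8.97% is for any middle base, and the narrower motif with C or G there was not counted over all genes. TCATGTG was found for 2 of 8 (Mmp12 and Ms4a7, against 4.31% of all genes), GAGGAAGT for 1 of 8 (Mmp12, against 3.69%) and CACGTG for none of the 8, against 8.09%. The Ms4a7 match to TCATGTG lies past the start and is not printed. No factor's binding was measured here, and a match describes these letters only.

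All 9 genes had a higher mean in BKO than in Ctrl, and in 8 of the 9 every BKO library lay above every Ctrl library. Among all 12966 listed genes, 9.77% were separated in that way and 6.33% in the other direction. The share separated with BKO higher was 9.06% of the tested genes and 15.0% of the 1569 listed genes with a mean under 1 FPKM. The genes were picked for this difference, so nothing is read from their count. The difference ran from 1.36-fold for Cd9 to about 30-fold for Mmp12 and more for Atp6v0d2, as ratios of mean FPKM. In bulk tissue, more cells of a type and more RNA per cell cannot be told apart.

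Mmp12 encodes macrophage elastase, which cuts elastin and other matrix proteins. It stood at 0.246, 0.154 and 0.0936 FPKM in the Ctrl libraries, numbers 1 to 3 in order here and below, and at 5.48, 4.94 and 4.32 FPKM in the BKO libraries. The lowest BKO library was 17.6 times the highest Ctrl library, and the BKO libraries lay close together. BKO was 29.9-fold higher by the ratio of means, and the log2 change, taken here and below on log2(FPKM + 1), was 2.34 (SE 0.113). In Ctrl it was the next to lowest of the 9 by mean level, and in BKO the third highest.

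Gpnmb, a transmembrane glycoprotein of macrophages loaded with lipid, stood at 0.393, 0.214 and 0.157 FPKM in the 3 Ctrl libraries in order, and at 2.02, 1.86 and 2.84 FPKM in the BKO libraries. Here BKO-3 was the highest library, whereas for most of the other genes it was the lowest. Means differed 8.79-fold, with a log2 change of 1.36 (SE 0.146). Atp6v0d2 encodes the d2 subunit of the vacuolar proton pump, an isoform best known from osteoclasts and also made by macrophages. Its Ctrl values were 0.0331, 0.0193 and 0.0198 FPKM, the lowest of the 9 genes, and its BKO values 1.37, 1.01 and 0.639 FPKM. The ratio of means, 41.8, rests on Ctrl values close to 0 whose reads are unknown, so its size is uncertain. The BKO libraries spread more than 2-fold, and the lowest of them was 19.3 times the highest Ctrl library.

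Trem2 encodes the receptor for lipids and lipoproteins that signals through the adaptor Tyrobp. It stood at 0.378, 0.117 and 0.0378 FPKM in Ctrl and at 1.63, 1.78 and 1.32 FPKM in BKO. The Ctrl libraries differed among themselves by a factor near that between the groups, and Ctrl-1 was the highest of them, and it stayed under every BKO library. Means differed 8.87-fold. Clec7a encodes Dectin-1, a C-type lectin that binds fungal beta-glucan, and its Ctrl values were 0.817, 0.463 and 0.237 FPKM, against 1.93, 0.872 and 1.19 FPKM in BKO. BKO-2 was only 1.07 times Ctrl-1, so the groups are separated by little, and the ratio of means was 2.63.

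Itgax encodes CD11c, the integrin alpha chain carried by dendritic cells and by lipid-associated macrophages. It stood at 0.357, 0.184 and 0.133 FPKM in Ctrl and at 0.617, 0.797 and 0.513 FPKM in BKO. No library reached 1 FPKM, and the ratio of means was 2.86. Ms4a7, a membrane-spanning protein of the MS4A family found in macrophages and microglia, was at 0.873, 0.325 and 0.522 FPKM in Ctrl, against 3.12, 2.36 and 2.51 FPKM in BKO. All 3 BKO libraries were at least 2.70 times Ctrl-1, the highest Ctrl library. Means differed 4.64-fold, with a log2 change of 1.23 (SE 0.154).

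The most abundant of the 9 genes were Lgals3 and Cd9. Lgals3 encodes galectin-3, a sugar-binding lectin known as the macrophage antigen Mac-2. It stood at 5.30, 2.63 and 2.10 FPKM in Ctrl and at 32.6, 31.0 and 11.4 FPKM in BKO. BKO-3 was well under the other BKO libraries and still 2.16 times Ctrl-1. Means differed 7.48-fold, with a log2 change of 2.52 (SE 0.420), the largest change of the 5 genes tested and also the least precise. Cd9 encodes a tetraspanin that many cell types carry, and stood at 10.4, 8.74 and 7.05 FPKM in Ctrl and at 13.2, 12.3 and 10.3 FPKM in BKO. It is the gene whose groups overlap, since BKO-3 lay just under Ctrl-1. The ratio of means was 1.36 and the log2 change 0.42 (SE 0.145).

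**Figure D1:**
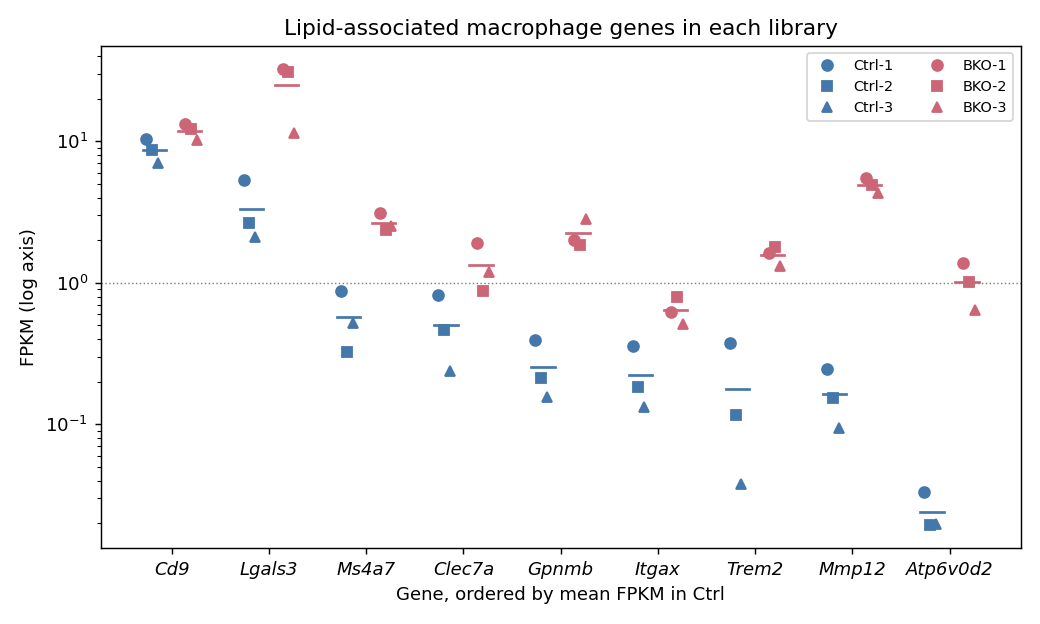
FPKM of the 9 genes (log axis) in each Ctrl (blue) and BKO (red) library, with short lines at the group means and a dotted line at 1 FPKM. Mmp12 and Atp6v0d2 show the widest gaps between the groups, Cd9 overlaps, and Ctrl-1 (blue circles) is the highest Ctrl library for all 9 genes.

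By mean level the order in Ctrl was Cd9, Lgals3, Ms4a7, Clec7a, Gpnmb, Itgax, Trem2, Mmp12 and Atp6v0d2, and in BKO Lgals3, Cd9, Mmp12, Ms4a7, Gpnmb, Trem2, Clec7a, Atp6v0d2 and Itgax. From Ms4a7 to Mmp12 each neighbour in the Ctrl order overlapped the next in its range over libraries. In BKO the ranges of Lgals3 and Cd9 overlapped, as did those of Ms4a7 and Gpnmb and of each neighbouring pair from Trem2 to Itgax. Mmp12 lay under Cd9 and above Ms4a7 in every BKO library, and the lowest Gpnmb value, 1.86 FPKM, lay above the highest of Trem2, 1.78 FPKM. Summed over the 9 genes, the level was 10.3 to 18.8 FPKM in Ctrl and 35.0 to 61.9 FPKM in BKO. Lgals3 made up 20.3% to 28.2% of that sum in Ctrl, and 52.6%, 54.5% and 32.6% in the BKO libraries, lowest in BKO-3.

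The libraries also took similar places from gene to gene. Ctrl-1 was the highest Ctrl library in 9 of 9 genes and Ctrl-3 the lowest in 7. BKO-1 was the highest BKO library in 6 of 9 and BKO-3 the lowest in 6. Other lists shared part of this order. Ctrl-1 was the highest Ctrl library in 13 of 16 resident macrophage markers, 7 of 9 fibroblast markers and 12 of 12 skeletal muscle markers. The highest BKO library differed between them. It was BKO-3 in 8 of 16 resident markers, BKO-1 in 6 of 9 fibroblast markers and BKO-2 in 12 of 12 muscle markers. Ctrl-2 was the lowest Ctrl library in 12 of 12 muscle markers. The summed muscle level ran from 162 to 748 FPKM in Ctrl, highest in Ctrl-1, and from 210 to 524 FPKM in BKO. The part of these in the order of the 9 genes was not tested.

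Of the 9 genes, 5 reached 1 FPKM when averaged across all 6 libraries and so entered the fit across 11397 genes (limma, Benjamini-Hochberg adjusted p below 0.05). Trem2, Atp6v0d2, Itgax and Clec7a fell under that filter. Mmp12, Gpnmb and Ms4a7 passed, 3 of the 5, against 0.158% of all tested genes called higher and 0.00877% called lower. All 3 lay under 1 FPKM in every Ctrl library and reached the filter only through their BKO values. The comparison is also the one that chose them, so nothing is read from the count. Lgals3 and Cd9 did not pass. With Ctrl-2, Ctrl-3, BKO-1 or BKO-2 left out, Mmp12 alone of the 9 passed. Lgals3 passed without BKO-3, where its log2 change was 2.99, and Ms4a7 did not.

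Trem2 was 0.0537, 0.0245 and 0.00729 of the level of its adaptor Tyrobp in Ctrl, and 0.117, 0.123 and 0.111 in BKO. The BKO libraries lay close together in this ratio, and their mean was 4.10 times that of Ctrl. Atp6v0d2 was 0.00104, 0.000597 and 0.000583 of its ubiquitous paralogue Atp6v0d1 in Ctrl, and 0.0424, 0.0309 and 0.0192 of it in BKO. Atp6v0d1 itself had means of 32.8 ± 1.05 (Ctrl) and 32.7 ± 0.468 FPKM (BKO), so the d2 isoform stayed a small fraction of the d transcripts in both groups.

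The ratio of Itgax to Itgb2, the beta chain it pairs with, was 0.241, 0.245 and 0.212 in Ctrl and 0.270, 0.351 and 0.235 in BKO, and the groups overlapped. Itgb2 itself had means of 0.953 ± 0.460 (Ctrl) and 2.24 ± 0.0572 FPKM (BKO; adjusted p = 0.211, limma with Benjamini-Hochberg adjustment). Lgals3 was 0.0131, 0.00636 and 0.00577 of Lgals1, the abundant galectin of stromal cells, in Ctrl, and 0.0812, 0.072 and 0.0318 in BKO.

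**Figure D2:**
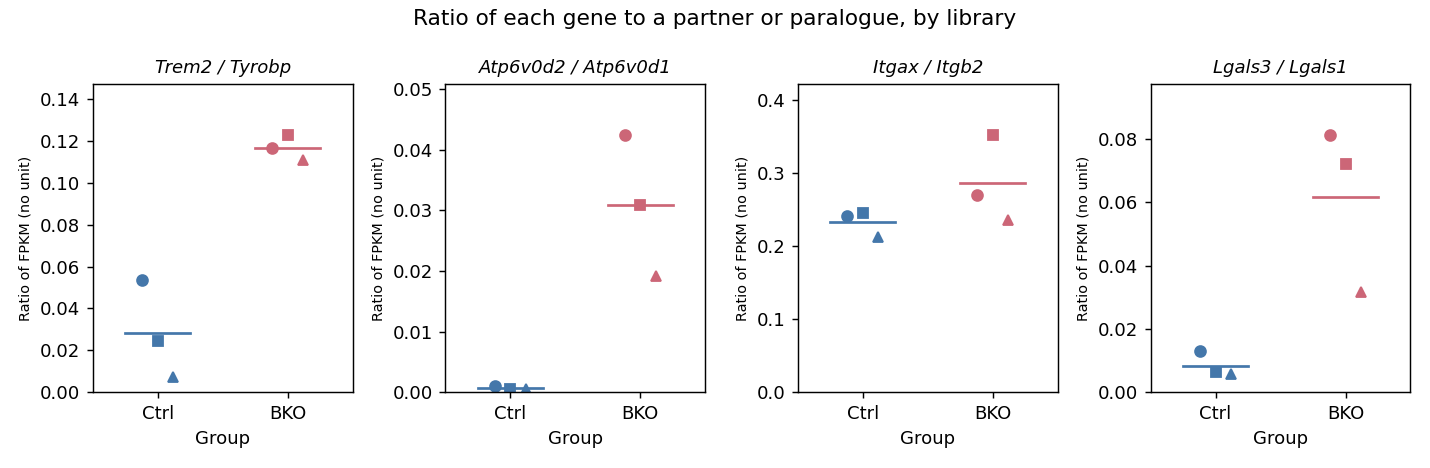
Ratio of FPKM (no unit, axes from 0) of Trem2 to Tyrobp, Atp6v0d2 to Atp6v0d1, Itgax to Itgb2 and Lgals3 to Lgals1 in each library, with lines at the group means and symbols for replicates 1 (circle), 2 (square) and 3 (triangle). The groups are apart for the first, second and last ratio and overlap for Itgax to Itgb2.

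Of 15 tested resident macrophage markers 1 rose, Lyz2, the macrophage lysozyme (3.54-fold, SE 0.173 on the log2 scale, adjusted p = 0.0195, limma with Benjamini-Hochberg adjustment), and 14 did not pass. All 15 had a positive log2 change, with a median of 0.43, while over all 11397 tested genes the median was 0.01 and 51.6% were positive. Of all tested genes 0.158% were called higher. The 15 leave out Cd163, which was lower in BKO (below), and Lyve1, Timd4, Fcgr1 and Cx3cr1, which were not listed. Genes low in BKO-3 are not listed, so markers that fell may be absent from these 15. The Lyz2 call was lost without Ctrl-2, Ctrl-3, BKO-1 or BKO-2, and the median was 0.61 without Ctrl-1, 0.62 without BKO-3 and 0.68 with a pseudocount of 0.1 FPKM. Without Ctrl-1 a second marker passed, the perforin-like gene Mpeg1 (log2 change 1.39). Emr1, the F4/80 antigen, was 2.04 times its Ctrl mean, the complement genes C1qa, C1qb and C1qc 1.87, 2.24 and 1.92 times, and Csf1r, the receptor for the macrophage growth factor, 1.45 times. The mannose receptor gene Mrc1 was 1.34 times its Ctrl mean and Mertk, a receptor for dying cells, 1.08 times. Cd163, a haemoglobin scavenger receptor of resident macrophages with a mean under 1 FPKM, was lower, at 1.23, 0.780 and 1.102 FPKM in Ctrl against 0.329, 0.507 and 0.568 FPKM in BKO, without overlap. These genes other than Lyz2 were named after their values were seen.

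Set against Csf1r in the same library, 8 of the 9 genes had groups that do not overlap. Of the 12965 other listed genes divided in the same way, 0.833% were separated with BKO higher. Csf1r was itself 1.45-fold higher in BKO, which lowers every such ratio, and the genes were picked on the same contrast, so nothing is read from this count. Other resident markers had larger ratios of means (Lyz2, 3.54, Mpeg1, 2.66, and Emr1, 2.04) or smaller ones (Mrc1, 1.34). Those of Lyz2 and Mpeg1 lay above that of Clec7a, 2.63. Ratios to them were not taken, so the separation is shown for Csf1r only. Mmp12 was 0.0521 to 0.0716 of Csf1r in Ctrl and 1.05 to 1.53 in BKO, and Gpnmb 0.0873 to 0.115 and 0.559 to 0.690. Ms4a7 was 0.140 to 0.291 of Csf1r in Ctrl and 0.609 to 0.863 in BKO. The smallest shifts of these 8 were for Itgax, at 0.0741 to 0.104 and 0.125 to 0.246, and Clec7a, at 0.132 to 0.238 and 0.269 to 0.533. For Cd9 the groups overlapped, at 3.04 to 3.93 in Ctrl and 2.49 to 3.80 in BKO.

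**Figure D3:**
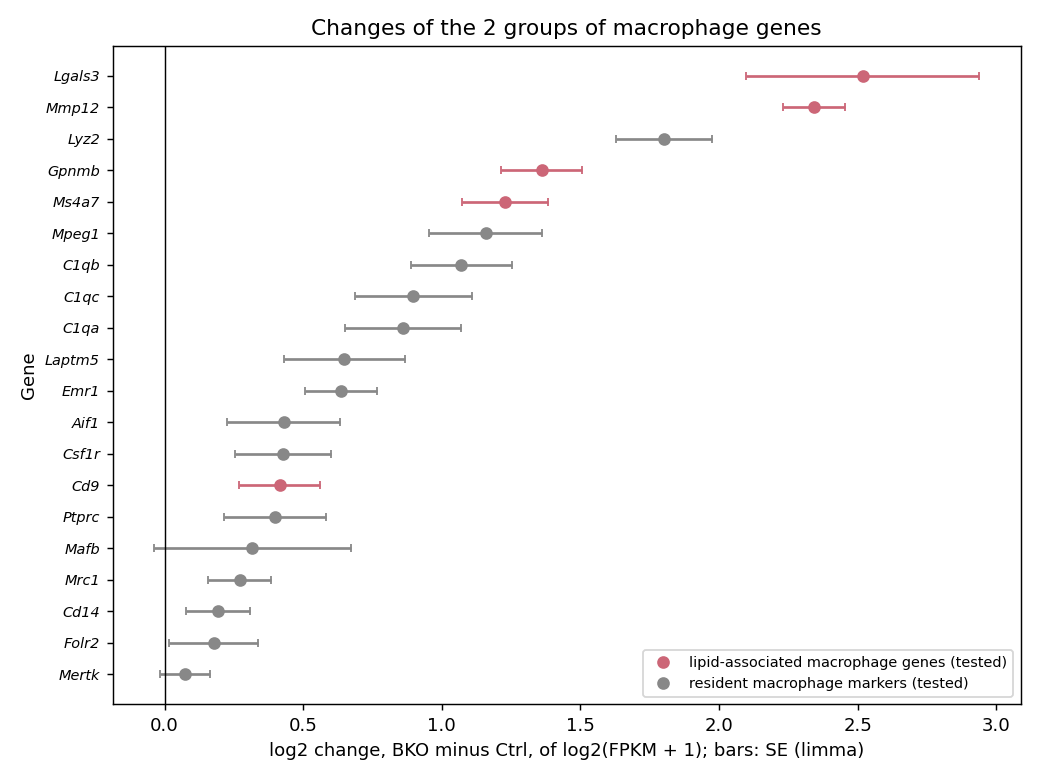
log2 change between BKO and Ctrl on log2(FPKM + 1), with its SE, for the 5 tested lipid-associated macrophage genes (red) and the 15 tested resident macrophage markers (grey). Lgals3 and Mmp12 lie above every resident marker, Lyz2 lies above Gpnmb and Ms4a7, and Cd9 lies among the markers with small changes.

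A wider list of 26 genes of the lipid-associated programme covers lipid uptake, lysosomal breakdown and efflux. Of its 24 tested members 2 rose and 22 did not pass, against 0.158% of all tested genes called higher. The median log2 change was 0.07 (0.0183 without BKO-2 to 0.124 without BKO-3, and -0.00797 with quantile normalization). Spp1 and Cst7 were not analysed here. Ctss, a lysosomal protease of phagocytes, rose from 4.88 ± 1.96 FPKM to 18.2 ± 2.18 FPKM (log2 change 1.76, SE 0.220, adjusted p = 0.0439, limma with Benjamini-Hochberg adjustment), a call kept without Ctrl-1 and lost when any other library was left out. It was also lost with a pseudocount of 0.1 or 0.5 FPKM, with no filter, without the trend and with the muscle covariate (adjusted p = 0.0508 to 0.0582, limma). Plin2, a lipid droplet coat protein of adipocytes and foam cells alike, rose 1.70-fold (log2 change 0.76, SE 0.0774, adjusted p = 0.0251, limma), and was kept without BKO-3 and lost when any other library was left out. Neither Cd68 nor Capg, chosen for mention with their values known, passed. Without BKO-3, Capg (log2 change 1.42) and Mfge8, which encodes a bridge to dying cells (0.75), passed. Cd68, a lysosomal glycoprotein of macrophages, had means of 2.61 ± 0.813 (Ctrl) and 8.02 ± 1.66 FPKM (BKO), and the actin-capping gene Capg of 1.99 ± 0.334 (Ctrl) and 5.94 ± 1.89 FPKM (BKO). Many other members of this list are abundant in adipocytes themselves, and the summed level was 15079 to 15787 FPKM in Ctrl and 15192 to 16914 FPKM in BKO.

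Signalling genes below Trem2 and Dectin-1 were tested for 9 of the 14 listed, and 1 rose, against 0.158% of all tested genes called higher. Tyrobp, the adaptor that Trem2 needs to reach the surface and signal, went from 7.03, 4.79 and 5.18 FPKM in Ctrl to 13.9, 14.5 and 11.9 FPKM in BKO (log2 change 1.13, SE 0.139, adjusted p = 0.0439, limma with Benjamini-Hochberg adjustment). This call was kept without Ctrl-1 and lost when any other library was left out or with no filter. All 9 tested genes of this list had a positive change, against 51.6% of all tested genes. Their median was 0.25 (0.171 to 0.318 with a library left out). Plcg2, Pik3cg and Btk were not listed, and genes low in BKO-3 are missing, so genes that fell may be absent. Card9, not tested and mentioned with its values known, had means of 0.724 ± 0.223 (Ctrl) and 0.665 ± 0.179 FPKM (BKO). Syk, the kinase both receptors recruit, was under 1 FPKM on average and had means of 0.475 ± 0.0976 (Ctrl) and 1.01 ± 0.184 FPKM (BKO).

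In the families of the single genes no tested member passed (limma, Benjamini-Hochberg), and the count at an unadjusted p below 0.05 is given for each. Over all 11397 tested genes, 10.2% were below it, so counts of 0 to 3 in lists this small are not read as a result. The range given with a median is that with each library left out in turn. Of 17 tested subunits of the proton pump other than Atp6v0d2, 2 were below it, and the median was 0.01 (-0.0158 to 0.0588). The most abundant were Atp6v0e, with means of 149 ± 12.3 (Ctrl) and 158 ± 5.01 FPKM (BKO), and Atp6v0c, with 103 ± 5.37 (Ctrl) and 105 ± 10.3 FPKM (BKO). Mitf, Tfeb and Tfe3, factors that drive lysosomal genes, had 0 of 3 below it and a median of 0.0976 (0.0652 to 0.116). Tfe3 had means of 10.9 ± 0.432 (Ctrl) and 11.7 ± 0.188 FPKM (BKO) and Tfeb of 5.84 ± 0.518 (Ctrl) and 5.72 ± 0.525 FPKM (BKO). Of the osteoclast list 3 genes were tested, 1 was below it and the median was -0.02 (-0.0476 to 0.00605). Acp5, the osteoclast and macrophage acid phosphatase, had means of 94.7 ± 2.09 (Ctrl) and 93.4 ± 3.53 FPKM (BKO), and the transcription factor gene Nfatc1 of 4.41 ± 0.299 (Ctrl) and 4.25 ± 0.0596 FPKM (BKO).

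Among 7 other matrix metalloproteinases 3 were below an unadjusted 0.05, with a median log2 change of 0.14. That median was 0.260 without Ctrl-1, 0.0924 without BKO-3 and 0.277 with a pseudocount of 0.1 FPKM. Mmp19 had means of 7.03 ± 0.217 (Ctrl) and 6.81 ± 0.184 FPKM (BKO), and Mmp2, the gelatinase of stromal cells, of 5.39 ± 1.48 (Ctrl) and 7.70 ± 1.08 FPKM (BKO). For 5 other genes named for galectins, Lgals3bp among them, it was 1, with a median of 0.05 (0.00220 without BKO-2 to 0.0881 without BKO-1). Lgals1 had means of 394 ± 27.1 (Ctrl) and 397 ± 35.9 FPKM (BKO), and Lgals3bp, which encodes a galectin-binding glycoprotein, of 28.1 ± 5.53 (Ctrl) and 37.7 ± 8.42 FPKM (BKO). For 11 other tetraspanins it was 3, with a median of -0.06 that changed sign without Ctrl-1 (0.0318) and was -0.104 without Ctrl-3. Cd81 had means of 118 ± 11.7 (Ctrl) and 114 ± 5.64 FPKM (BKO) and Tspan3 of 96.0 ± 2.24 (Ctrl) and 87.2 ± 1.60 FPKM (BKO). The leukocyte tetraspanin Cd53, mentioned with its values known, had means of 1.28 ± 0.438 (Ctrl) and 2.72 ± 0.213 FPKM (BKO).

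For 5 other MS4A genes the count below an unadjusted 0.05 was 2 and the median 0.28 (0.165 without Ctrl-3 to 0.433 without Ctrl-1). Ms4a4d had means of 1.87 ± 0.286 (Ctrl) and 2.50 ± 0.329 FPKM (BKO) and Ms4a6d of 1.58 ± 0.182 (Ctrl) and 1.72 ± 0.110 FPKM (BKO). The 6 other tested C-type lectins had 2 below it and a median of 0.24, which was 0.385 with a pseudocount of 0.1 FPKM. The 5 other integrins had 2 below it and a median of 0.06 (0.00353 without Ctrl-3 to 0.129 without BKO-2). Clec2d, a lectin ligand of killer cell receptors, had means of 49.3 ± 4.78 (Ctrl) and 54.8 ± 3.99 FPKM (BKO), and the endothelial lectin Clec14a of 2.22 ± 0.179 (Ctrl) and 2.09 ± 0.395 FPKM (BKO). The integrin beta chain Itgb1 had means of 52.3 ± 2.75 (Ctrl) and 47.7 ± 3.76 FPKM (BKO). Itgb5 had means of 10.9 ± 2.14 (Ctrl) and 14.4 ± 0.279 FPKM (BKO). Itgam, not tested and mentioned with its values known, had means of 0.378 ± 0.154 (Ctrl) and 0.730 ± 0.0473 FPKM (BKO). Of 7 listed integrins 3 were separated with BKO higher and 0 with BKO lower. Genes low in BKO-3 are not listed, which favours such counts. MS4A and C-type lectin genes have near copies, so reads may have been split among them, which also holds for Ms4a7.

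Markers of other cells that could carry some of the 9 genes were measured as well. None of 4 tested dendritic cell markers passed (limma, 3 at an unadjusted p below 0.05). Their median was 0.78, or 0.449 with no filter on low values, when 6 were tested. Of the 13 markers 7 were not listed, namely Flt3, Itgae, Xcr1, Cd209a, Batf3, Ccr7 and Siglech. Genes low in BKO-3 are missing, so markers that fell may be absent. The 3 tested markers with a positive change, Cd74, H2-Aa and H2-Ab1, are genes of antigen presentation shared with macrophages. Cd74 had means of 47.5 ± 14.2 (Ctrl) and 82.7 ± 7.18 FPKM (BKO) and H2-Aa of 36.1 ± 12.7 (Ctrl) and 63.5 ± 5.98 FPKM (BKO). Without Ctrl-1 the median was 1.03 and 2 of these markers passed, H2-Aa and H2-Ab1, with log2 changes of 1.11 and 1.03. The dendritic cell transcription factor gene Zbtb46, mentioned with its values known, stood at 5.81, 5.29 and 4.57 FPKM in Ctrl. In BKO it was at 4.89, 4.85 and 5.11 FPKM, with a log2 change of -0.06. The summed dendritic list was 86.5 to 156 FPKM in Ctrl and 176 to 207 FPKM in BKO.

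Monocyte markers summed to 1.82 to 4.44 FPKM in Ctrl and 3.63 to 5.81 FPKM in BKO over 3 listed genes. The 9 listed fibroblast and preadipocyte markers, some of which carry Cd9, summed to 213 to 258 FPKM in Ctrl and 261 to 307 FPKM in BKO (median 0.41, or 0.264 without BKO-1; none past the limma threshold and 3 at an unadjusted p below 0.05). Neutrophil and mast cell markers summed to 3.49 to 5.42 and 3.98 to 5.35 FPKM over 3 listed genes, and lymphocyte markers to 1.27 to 3.39 and 1.33 to 2.52 FPKM over 3. Endothelial markers had a median of -0.01 over 12 genes, brown adipocyte markers 0.01 over 14 and skeletal muscle markers 0.03 over 12. Without Ctrl-3 the brown adipocyte median was 0.210. Leaving out Ctrl-1 moved the muscle median to 0.768 and leaving out Ctrl-2 to -0.565, and the endothelial one 0.0218 without BKO-1 and -0.0500 without Ctrl-3. None of these passed the limma threshold, and 0, 3 and 0 were at an unadjusted p below 0.05. The part of the dendritic, monocyte and fibroblast markers in the levels of Itgax, Lgals3 and Cd9 was not tested.

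**Figure D4:**
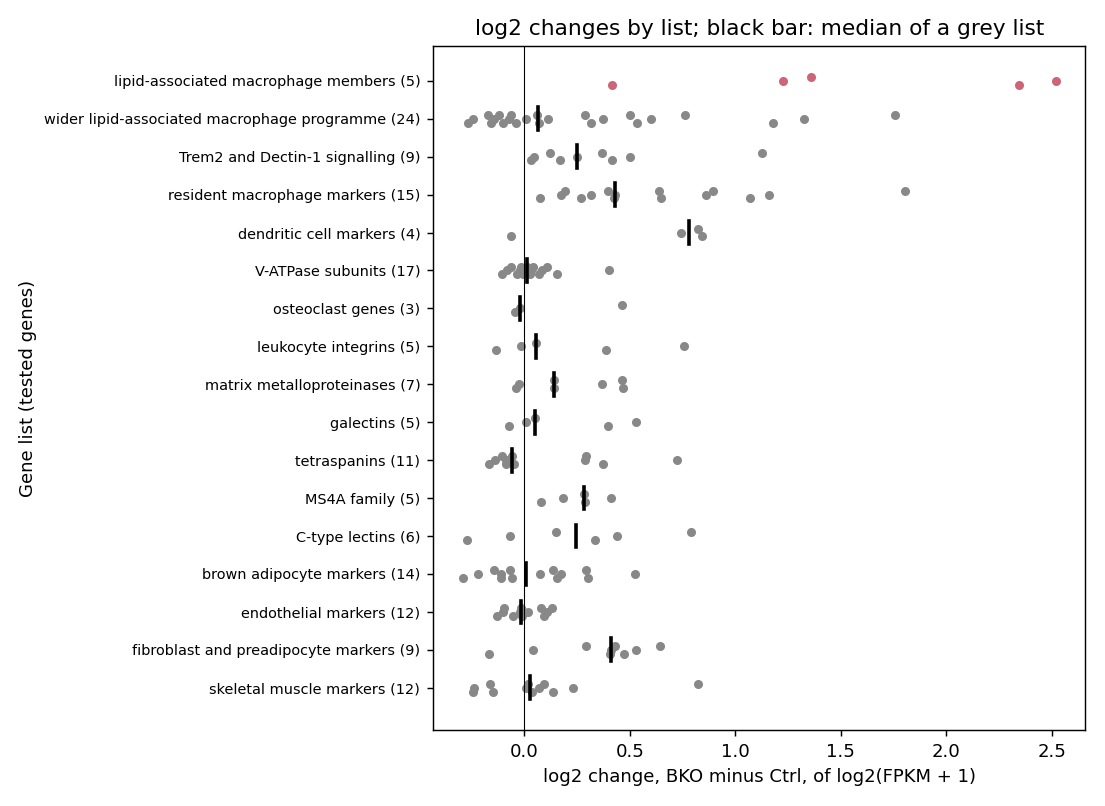
log2 change (BKO minus Ctrl, log2(FPKM + 1)) of each tested gene in the lists, with the number tested in brackets and a black bar at the median of each grey list. Proton pump subunits and endothelial markers crowd around 0, whereas resident macrophage, dendritic cell and fibroblast markers lie mostly to the right of it. The dendritic cell markers to the right are genes of antigen presentation shared with macrophages.

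The pattern of the 5 tested genes over the 6 libraries, as their mean profile in standard deviations, was matched against every other tested gene by the root mean square difference. The 6 nearest were Cd84, Phgdh, Ctss, Lyz2, Anxa1 and Pam, at differences of 0.0373, 0.0716, 0.0859, 0.0895, 0.108 and 0.122 standard deviations. For scale, the members themselves lay 0.171 (Ms4a7) to 0.406 (Cd9) from it. Cd84, a receptor of the SLAM family on leukocytes, was at 0.553, 0.262 and 0.180 FPKM in Ctrl, against 1.84, 1.74 and 1.47 FPKM in BKO. Phgdh, the first enzyme of serine synthesis, stood at 2.96, 2.50 and 2.03 FPKM in Ctrl against 7.00, 6.54 and 5.40 FPKM in BKO. Phgdh passed the limma threshold, as did Ctss and Lyz2 (above), and its call was lost whichever library was left out, with no filter and with the muscle covariate. Cd84, Anxa1 and Pam did not pass, and Cd84 did without Ctrl-1 and without the trend (adjusted p = 0.0451 and 0.0413, limma with Benjamini-Hochberg adjustment). Anxa1, which encodes annexin A1, had means of 5.49 ± 0.428 (Ctrl) and 9.49 ± 0.826 FPKM (BKO), and the peptide-amidating enzyme gene Pam of 5.40 ± 0.503 (Ctrl) and 7.53 ± 0.273 FPKM (BKO). The measure covers 6 libraries in 2 groups, so any gene that separates the groups and is high in Ctrl-1 and BKO-1 comes near.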

How the data were processed

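The authors deposited FPKM per gene for 3 Ctrl and 3 BKO libraries. The submitters' processing notes name Cufflinks 2.2.1, TopHat2 2.0.12, CASAVA 1.8 and build NCBIM37; their options and the gene models used were not given in the sources used here. Columns were assigned by the sample names in the labels, which call the Ctrl libraries MT and the BKO libraries WT; Bscl2 checked this. FPKM are not counts, low values did not fall on steps, and depth is unknown. The FPKM sum was 1119228 to 1617963 in 5 libraries and 2808874 in BKO-3.

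log2(FPKM + 1) was fitted for the 11397 genes averaging 1 FPKM or more with limma 3.58.1 in R 4.3.3 (intensity trend, no covariate, Benjamini-Hochberg adjustment, threshold 0.05), after a test on simulated data. This scale understates changes of low genes, so folds are ratios of mean FPKM. The 9 genes and the 20 other lists were chosen with earlier results of these data known. From each list described, up to 4 genes past the threshold were named, or the 2 most abundant, plus the 6 nearest in pattern; others are marked. Promoter stretches and motifs were read from RefSeq (GRCm38.p6). Alternatives were pseudocounts, filter, scalings, trend, replicate block, muscle covariate and leaving out each library.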

Additional observations from a re-analysis of the deposited data

How the results depend on the processing

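Mmp12 passed in all 14 alternatives (log2 change 2.21 to 4.28), Gpnmb in 7, Ms4a7 in 4, Lgals3 in 2 and Cd9 in none. Of the 9 genes, 3 passed as reported, against 1 with quantile normalization, 1 with the skeletal muscle score as covariate and 1 to 3 with a library left out. Genes called higher numbered 18, against 11 with no filter on low values, 8 with the muscle covariate and 5 to 30 with a library left out (30 when it was BKO-3, 11 when BKO-2 or Ctrl-3, 8 when Ctrl-2 and 5 when BKO-1). Genes called lower numbered 1, against 2 with the replicate block and 1 to 3 with a library left out. The replicate block left 3 of the 9 past the threshold, Mmp12, Lgals3 and Ms4a7, and 23 higher genes, and with it Cd68 and C1qa also passed. Deviations of same-numbered libraries correlated at 0.20, -0.10 and -0.10 (11397 genes), and those of differently numbered ones at -0.13 to 0.22. With 3 libraries per group these values cannot decide whether the numbers pair the libraries. Changes near 0 reversed. With quantile normalization Atp6v0c was at -0.000555 and Lgals1 at -0.0897, and with median ratio rescaling Lgals1 was at -0.00452. With a library left out, the range was -0.0329 to 0.0976 for Atp6v0c, -0.0516 to 0.0787 for Lgals1, -0.0803 to 0.0330 for Tfeb, -0.0476 to 0.00605 for Acp5, -0.101 to 0.0318 for Cd81, -0.0156 to 0.231 for Ucp1 and -0.0178 to 0.0239 for Atp6v0d1. The causes were not tested. Unknown depth limits every value under 1 FPKM.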
